A study of Mus musculus with 12 samples.

Results

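The 40 genes described here encode enzymes and membrane proteins of the lysosome, together with Tfeb, a transcription factor that controls many of them. They were listed by name and role, with earlier results of these data known, and all 40 were held by both count tables, of 15361 genes in whole kidney and 18145 in the F4/80+ preparations. By role they were 10 cysteine cathepsins including legumain, 3 other peptidases, 14 glycosidases and sulfatases, 5 proteins of lipid handling or enzyme activation, 7 membrane proteins and 1 transcription factor. The mice had been edited with CRISPR-Cas9 to carry, on both chromosomes, either the Arg-encoding major allele or the Trp-encoding minor allele of a polymorphism in Sh2b3, which encodes the adaptor protein LNK. All of them had received angiotensin II for 4 weeks, which narrows vessels and raises blood pressure, and no untreated mice were among the samples. The 12 libraries of polyadenylated RNA formed 4 groups of 3 biological replicates, namely Arg/Arg kidney, Trp/Trp kidney, Arg/Arg F4/80+ and Trp/Trp F4/80+. The F4/80+ material came from other kidneys than the whole-kidney RNA and was isolated by a Percoll gradient and anti-F4/80 microbeads. The labels name no strain, sex or age.

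Lysosomes are acidic compartments that break down proteins, glycans and lipids delivered by endocytosis, phagocytosis and autophagy. Soluble hydrolases reach them by way of mannose 6-phosphate or sorting receptors, a proton pump keeps the lumen acidic, and heavily glycosylated membrane proteins line the inner face. In kidney, the proximal tubule is rich in lysosomes because it takes up and degrades filtered protein, and macrophages are rich in them because they digest what they engulf. TFEB and its relatives bind a short palindromic element, the CLEAR motif, in the promoters of many lysosomal genes.

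The promoters are shown first, as a description. Their sequences were not used to choose the genes, but the CLEAR motif is known from promoters of lysosomal genes. Its share in a list of such genes is therefore no independent result. RefSeq promoter windows (GRCm38.p6, 250 bases before to 50 after the gene start) were held for 35 of the 40 genes, and not for Asah1, Ctsb, Ctsh, Galns and Npc1. The E-box core CACGTG was found in 13 of these 35 (37.1%), and in 2187 of 27025 genes with a window (8.09%). The longer GTCACGTG, the first 8 bases of the CLEAR motif, was found on either strand in 10 of 35 (28.6%) and in 2.55% of all genes. Those 10 were Arsa, Ctsa, Ctsd, Gla, Glb1, Lamp1, Lgmn, Mcoln1, Naglu and Sgsh. The palindrome TCACGTGA, which overlaps both, was in 4 of 35 (11.4%) and in 1.12% of all genes, and the full CLEAR palindrome of 10 bases was in 0 of 35 and in 0.37%. The 10 genes held 12 sites of the 8 bases, starting 14 to 245 bases before the gene start, and 10 of the 12 lay within 100 bases of it. In the GENCODE annotation of the same build, 7 of these sites with their flanks touched an annotated UTR, 1 lay in an intron (Lgmn) and 4 lay upstream of the gene. The following 5 are those outside UTRs, written 5′ to 3′ on the strand of the gene, with the 8 matching bases in capitals.
Lamp1, chr8:13159122-13159151 (plus strand): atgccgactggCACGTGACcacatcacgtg
Glb1, chr9:114401017-114401046 (plus strand): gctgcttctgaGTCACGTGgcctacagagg
Gla, chrX:134601183-134601212 (minus strand): gtgagatctcgGTCACGTGagcaactctcg
Ctsd, chr7:142388054-142388077 (minus strand): tccccCACGTGACctgtatccagt
Lgmn, chr12:102439125-102439154 (minus strand): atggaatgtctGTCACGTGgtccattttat

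**Figure D1:**
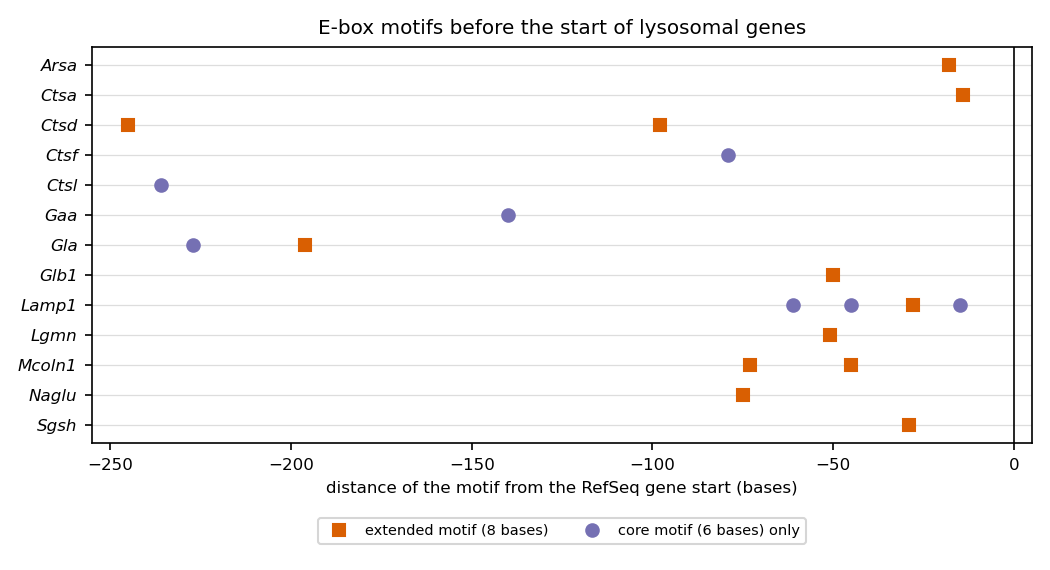
Position of E-box motifs in the 250 bases before the RefSeq gene start of the 13 lysosomal genes that held one. The x axis is the distance from the start in bases, squares mark the extended 8-base motif and circles the 6-base core alone. Of the 12 squares, 10 lie within 100 bases of the start.

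Each of these sequences is a match of letters in a window and not a measured binding site. Genes with and without the 8 bases are set side by side here as a description, with no test. Between F4/80+ preparations and kidney their median log2 difference was -0.21, against -0.25 for the 25 genes whose window lacked them. Between genotypes in kidney the medians were 0.01 and 0.03. In the F4/80+ preparations they were -0.21 for the 10 and -0.08 for the 24 of the others that were tested.

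Levels below are CPM, that is, counts per megacount (M) of the library's nuclear protein-coding counts over genes held by both tables, so that mitochondrial transcripts do not enter. Those transcripts took 7.9 to 9.4% of all counts in kidney and 70.1 to 83.6% in the F4/80+ libraries, which left 17.8 to 49.9 M nuclear coding counts per kidney library and 6.9 to 11.1 M per F4/80+ library. The F4/80+ label was checked against 13 macrophage markers that are no members. None of the 13 was at 0 in any library, but their summed level was 126 to 293 CPM in the F4/80+ libraries and 224 to 339 CPM in whole kidney. By edgeR (adjusted p below 0.05) 1 of 13 was higher and 7 were lower in the F4/80+ libraries, where 26.4% and 37.4% of all 13578 genes tested were. Adgre1, which encodes F4/80, was at 10.8, 1.26 and 2.06 CPM in Arg/Arg and 2.15, 11.5 and 16.7 CPM in Trp/Trp F4/80+ libraries. Arg/Arg replicate 1 and Trp/Trp replicates 2 and 3 were thus high and the other 3 low. The summed level of 9 proximal tubule markers was 6013 to 17778 CPM in the F4/80+ libraries and 14646 to 16595 CPM in kidney. The data below are therefore those of preparations that held much tubular RNA. In bulk RNA, fewer cells of a type and less RNA per cell cannot be told apart.

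The 40 genes together took 1.12% ± 0.0198 of nuclear coding counts in kidney and 0.876% ± 0.0961 in the F4/80+ libraries (SD, n = 6). Per kilobase of exon, Psap stood first in kidney at 917 ± 25.6 CPM per kilobase (SD, n = 6). Psap encodes prosaposin, the precursor of the saposins that help enzymes reach membrane lipids. Lamp1 followed at 401 ± 5.42, Cd63 at 288 ± 10.2 and Lgmn at 271 ± 16.5 CPM per kilobase, where Cd63 and Lgmn lay within their SDs of each other. In the F4/80+ libraries the order began with Lamp1 at 546 ± 68.4, then Ctsd at 207 ± 43.7 and Psap at 189 ± 38.7 CPM per kilobase, and the latter pair overlapped. The lowest level per kilobase was that of Npc1, a cholesterol exporter of the lysosomal membrane, in kidney (2.43 ± 0.184) and of Ctsk, the collagen-degrading cathepsin of osteoclasts, in the F4/80+ libraries (0.367 ± 0.284). In kidney, Gla (2.54 ± 0.251), Cd68 (2.62 ± 0.676) and Sgsh (2.86 ± 0.419) overlapped Npc1 within their SDs. The length used joins all annotated exons of a gene, which for Npc1 came to 11317 bases.

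The first comparison set F4/80+ preparations against whole kidney. Lysosomal genes did not move as a block: 7 of 40 were higher and 17 were lower in the F4/80+ libraries, and Psap, first in kidney per kilobase, was 4.86-fold lower there. Cd68, Tpp1, Ctsc, Gla, Ctsl, Lamp1 and Ctsd were the 7 higher ones. These 24 calls (edgeR quasi-likelihood test, adjusted p below 0.05) are 60% of the 40, where 63.7% of the 13578 genes tested were called (67.3% at an unadjusted p below 0.05). In the higher direction that background was 26.4% and in the lower direction 37.4%. With a log2 difference of at least 1 as a further condition, 1 gene was higher (background 9.98%) and 7 were lower (background 16.8%). The median log2 difference of the 40 was -0.18 and that of all genes -0.13. Sample type, count table and preparation differed together and cannot be told apart. With TMM scaling the median of all genes moved to -0.01 and that of the 40 to -0.05, and the higher share of all calls was 50.3% in place of 41.3%, so the differences are best read against the median of all genes. Of the named genes, Glb1 and Lipa, neither of them called, changed sign with the scaling. Glb1 did so with TMM (0.012) and RLE (0.031), and Lipa with RLE only (0.003).

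**Figure D2:**
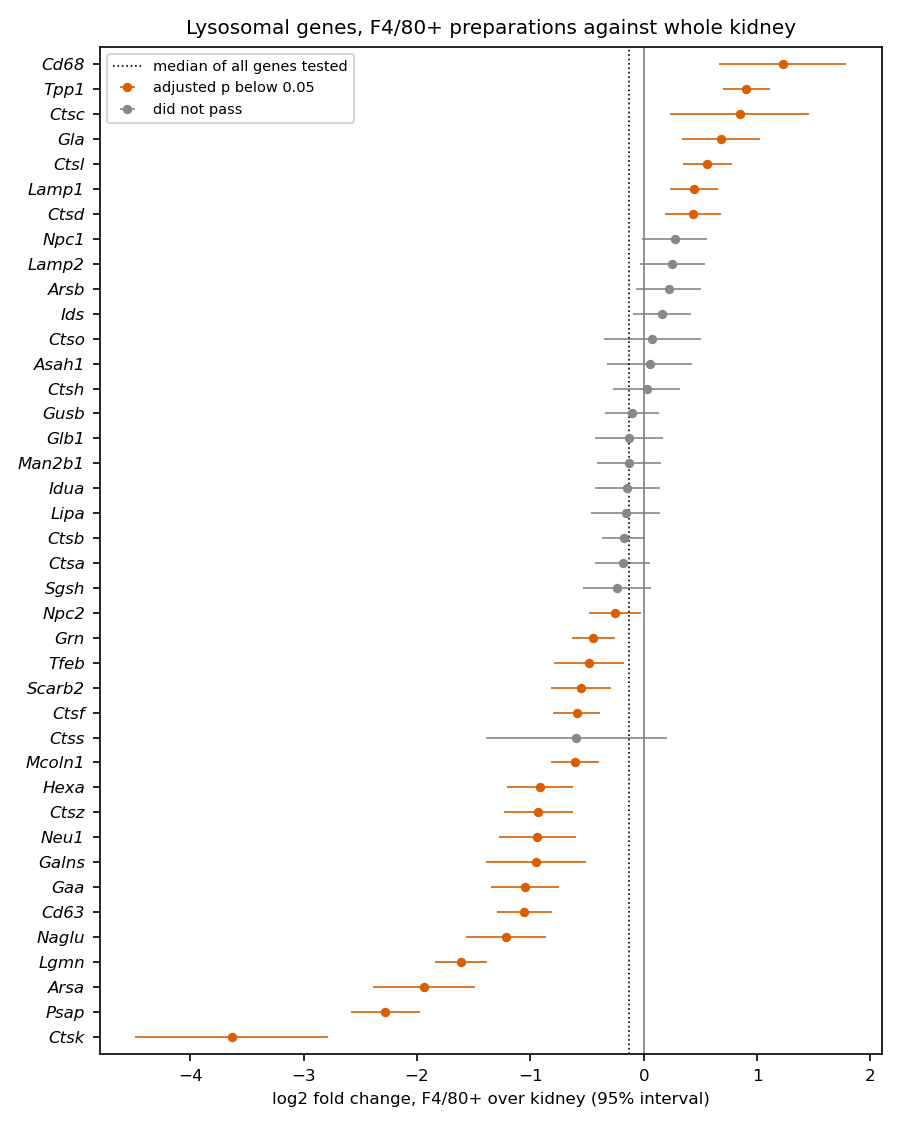
Log2 difference of the 40 genes between F4/80+ preparations and whole kidney (x axis, edgeR, with 95% intervals). Orange points passed at an adjusted p below 0.05, grey points did not, and the dotted line is the median of all genes tested (-0.13). Points reach from Ctsk at -3.63 to Cd68 at 1.23.

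Among the cysteine cathepsins and legumain, 2 of 10 were higher and 4 lower, where 26.4% and 37.4% of all genes were. Legumain (Lgmn, ENSMUSG00000021190.14, chromosome 12, 102394084 to 102439813 in mm10) is an asparaginyl endopeptidase that processes other cathepsins and is prominent in the proximal tubule. It was at 582, 620 and 680 CPM (lowest, median and highest of 6) in kidney and at 167, 188 and 268 CPM in the F4/80+ libraries, and the groups did not overlap. The log2 difference was -1.61 ± 0.11 (SE; edgeR adjusted p = 4.78e-08). Ctsl, a broad endopeptidase of both tubule and macrophage lysosomes, went the other way. Its level was 525, 548 and 564 CPM in kidney and 627, 787 and 1054 CPM in the F4/80+ libraries, again without overlap, with a log2 difference of 0.56 ± 0.10 (edgeR adjusted p = 0.000279). In the annotation, 26.8% of the exon bases of Ctsl lie under other genes, and no label says whether the counting used strand, so reads of overlapping genes may be included.

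Ctsk was at 5.51, 6.10 and 9.89 CPM in kidney. In the F4/80+ libraries it was at 0, 0.466 and 1.16 CPM, with the 0 in Arg/Arg replicate 2, where 3 counts would correspond to 0.379 CPM. All 6 kidney libraries stood above all 6 F4/80+ libraries, and the log2 difference of -3.63 ± 0.40 (edgeR adjusted p = 3.76e-06) was the largest among the 40 genes. Ctsc, or cathepsin C, activates the serine proteases of immune cells. It was at 28.6, 30.3 and 39.6 CPM in kidney and at 20.7, 56.9 and 140 CPM in the F4/80+ libraries, so the groups overlapped widely. Its log2 difference of 0.85 ± 0.28 passed (edgeR adjusted p = 0.0187), but was 0.52 without Arg/Arg F4/80+ replicate 1 and 0.56 without Trp/Trp F4/80+ replicate 2, and passed in neither case (edgeR adjusted p = 0.0631 and 0.0609). Ctss, a cathepsin of antigen-presenting cells that trims the MHC class II invariant chain, was at 12.6, 17.5 and 35.7 CPM in kidney and at 2.91, 12.9 and 29.7 CPM in the F4/80+ libraries. It did not pass (edgeR adjusted p = 0.176), and passed at -1.17 without Arg/Arg F4/80+ replicate 1 (edgeR adjusted p = 0.00391). Of the others, Ctsf and Ctsz were lower by edgeR, and Ctsb, Ctsh and Ctso did not pass.

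Of the 3 other peptidases, 2 were higher and 0 lower (26.4% and 37.4% of all genes). Tpp1, the tripeptidyl peptidase whose loss causes a childhood ceroid lipofuscinosis, was at 220, 231 and 243 CPM in kidney and at 353, 424 and 532 CPM in the F4/80+ libraries. The groups did not overlap, and the log2 difference was 0.91 ± 0.10 (edgeR adjusted p = 3.06e-06). Ctsd, the main aspartic protease of lysosomes, was at 335, 353 and 394 CPM in kidney and at 320, 503 and 619 CPM in the F4/80+ libraries, where Arg/Arg replicate 3 lay below all kidney libraries. Its log2 difference was 0.43 ± 0.11 (edgeR adjusted p = 0.00434). A same-strand gene model, Gm49369, shares 34.4% of its exon bases, so how reads were assigned between the pair is uncertain. Ctsa, or protective protein, did not pass at -0.19 ± 0.11 (edgeR adjusted p = 0.168).

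Of the 14 glycosidases and sulfatases, 1 was higher and 6 were lower (26.4% and 37.4% of all genes). Arsa, the sulfatase whose loss causes metachromatic leukodystrophy, was at 16.6, 16.9 and 17.4 CPM in kidney and at 1.86, 4.59 and 7.05 CPM in the F4/80+ libraries. These groups were far apart, at a log2 difference of -1.94 ± 0.21 (edgeR adjusted p = 3.7e-06). An antisense transcript covers 18.8% of the exon bases of Arsa. Naglu, which removes N-acetylglucosamine from heparan sulfate, was lower by -1.22 ± 0.16 (edgeR adjusted p = 2.48e-05). Gaa, the acid glucosidase of glycogen breakdown, was at 116, 124 and 128 CPM in kidney and at 47.7, 51.4 and 80.4 CPM in the F4/80+ libraries, a log2 difference of -1.05 ± 0.14 (edgeR adjusted p = 2.16e-05). Hexa, the alpha subunit of beta-hexosaminidase, was at 50.1, 56.3 and 65.1 CPM in kidney and at 17.7, 35.0 and 38.3 CPM in the F4/80+ libraries. Neither Gaa nor Hexa overlapped between sample types. Neu1 and Galns were lower as well (edgeR), at -0.94 ± 0.16 and -0.95 ± 0.20. Gla, the alpha-galactosidase lost in Fabry disease, was the only higher one of the 14. Its level was 6.81, 8.41 and 9.05 CPM in kidney and 9.48, 13.9 and 18.7 CPM in the F4/80+ libraries, at a log2 difference of 0.68 ± 0.16 (edgeR adjusted p = 0.00206). Glb1, the beta-galactosidase, and Arsb, which removes sulfate from dermatan sulfate, did not pass. Arsb passed at 0.33 without Arg/Arg F4/80+ replicate 1 (edgeR adjusted p = 0.0068).

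Of the 5 lipid-handling genes and activators, 0 were higher and 3 lower (26.4% and 37.4% of all genes). Psap (ENSMUSG00000004207.14, chromosome 10, 60277627 to 60302597) was at 2425, 2499 and 2627 CPM in kidney and at 398, 490 and 678 CPM in the F4/80+ libraries. All 6 F4/80+ libraries lay far below kidney, at a log2 difference of -2.28 ± 0.14 (edgeR adjusted p = 2.51e-08). Grn, which encodes progranulin, was at 192, 195 and 210 CPM in kidney and at 123, 145 and 160.5 CPM in the F4/80+ libraries, a log2 difference of -0.45 ± 0.09 (edgeR adjusted p = 0.00057). Npc2, which hands cholesterol to the membrane protein NPC1, was called at -0.25 ± 0.11 (edgeR adjusted p = 0.0497), and lost that call in 15 of 19 alternative fits. Lipa, the acid lipase, did not pass at -0.16 ± 0.14 (edgeR adjusted p = 0.328), and neither did Asah1, the acid ceramidase.

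Of the 7 membrane proteins, 2 were higher and 3 lower (26.4% and 37.4% of all genes). Lamp1, a structural glycoprotein of the lysosomal membrane, was at 1050, 1072 and 1091 CPM in kidney and at 1244, 1416 and 1682 CPM in the F4/80+ libraries. The groups did not overlap, at a log2 difference of 0.44 ± 0.10 (edgeR adjusted p = 0.00153). Its relative Lamp2, needed for fusion of autophagosomes with lysosomes, was at 933, 954.5 and 969 CPM in kidney and at 765, 1075 and 1732 CPM in the F4/80+ libraries. That spread was wide, and Lamp2 did not pass (edgeR adjusted p = 0.113), although it did at 0.39 with TMM scaling (edgeR adjusted p = 0.038). Cd63, a tetraspanin of late endosomes and exosomes, was at 1002, 1076 and 1093 CPM in kidney and at 382, 496 and 682 CPM in the F4/80+ libraries. Here too the groups did not overlap, at a log2 difference of -1.06 ± 0.11 (edgeR adjusted p = 3.15e-06). Scarb2, the receptor that carries glucocerebrosidase to lysosomes, and Mcoln1, the calcium channel TRPML1, were lower at -0.56 ± 0.12 and -0.61 ± 0.10 (edgeR adjusted p = 0.00137 and 0.000136).

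Cd68, a LAMP family glycoprotein used as a macrophage marker, was the only one of the 40 genes called higher by a log2 difference of at least 1. It was at 2.35, 3.10 and 4.28 CPM in kidney and at 2.84, 9.65 and 11.9 CPM in the F4/80+ libraries. Of the latter, 5 lay above every kidney library and Arg/Arg replicate 3 did not. The log2 difference was 1.23 ± 0.26 (edgeR adjusted p = 0.00107), and 0.92 without Arg/Arg F4/80+ replicate 1, which left no gene past that size. Tfeb was at 23.5, 25.8 and 27.1 CPM in kidney and at 9.88, 19.3 and 25.5 CPM in the F4/80+ libraries, with overlap and a log2 difference of -0.48 ± 0.14 (edgeR adjusted p = 0.00889).

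Over the 40 genes, 4 had all F4/80+ libraries above all kidney libraries (Ctsl, Tpp1, Gla and Lamp1), where 15.1% of all genes did. Another 15 had all of them below, where 27.1% of all genes did, and 21 overlapped.

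**Figure D3:**
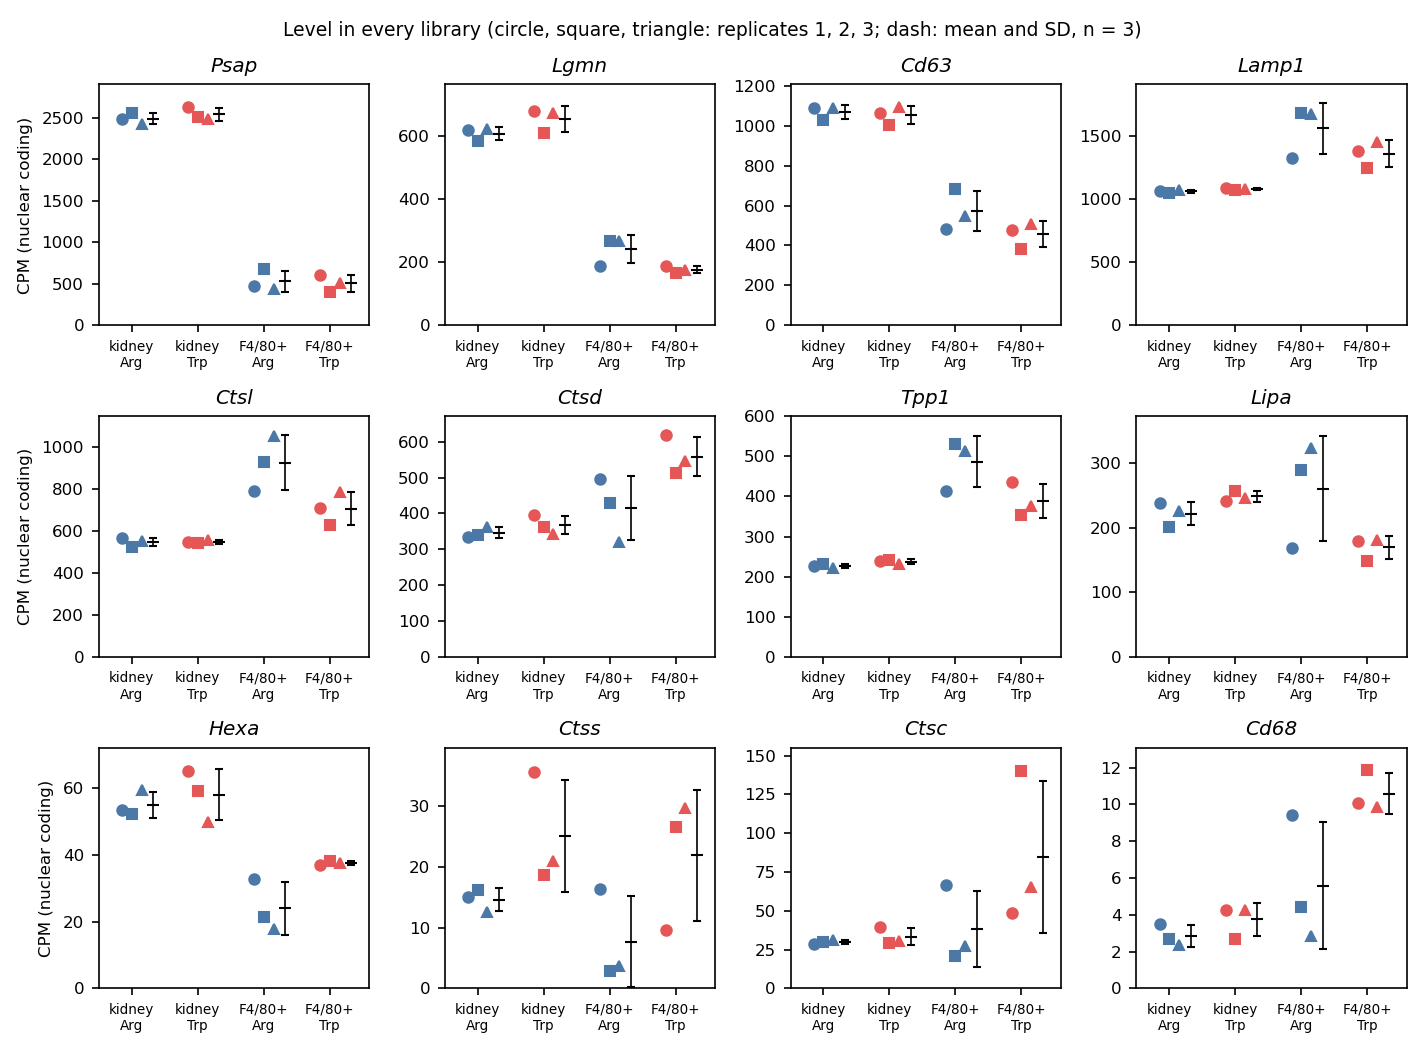
Level of 12 of the genes in every library, in CPM over nuclear protein-coding counts (y axis, from 0), for the 4 groups on the x axis. Blue is Arg/Arg and red Trp/Trp, symbols are replicates 1 to 3, and the dash with bars is the mean and SD (n = 3). Psap, Lgmn and Cd63 separate the sample types, and Ctss, Ctsc and Cd68 vary most between libraries of a group.

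The second comparison asked how the lysosomal genes of kidney stood in the genotypes. Most were measured closely and lay near each other in the genotypes, and no gene passed. edgeR called 0 of the 40 and 0 of the 14464 genes tested (0%), and DESeq2 called 0 of the 40 and 15 genes in all. At an unadjusted p below 0.05, 1 of the 40 was higher and 0 were lower, against 3.68% of all genes higher, 2.03% lower and 5.71% in either direction. The median log2 fold change (Trp/Trp over Arg/Arg throughout) was 0.02 for the 40 and 0.00 for all genes. Of the 40, 28 were positive (70%), and of all genes 50.65%. The 95% interval of the difference lay within 1.2-fold in either direction for 29 of 40 genes and within 1.5-fold for 37, the exceptions being Ctsk, Ctss and Cd68. The share of nuclear coding counts was 1.11% ± 0.0140 for Arg/Arg and 1.14% ± 0.0172 for Trp/Trp kidney (SD, n = 3). Since the labels call the replicates biological without naming single animals, the p-values measure the spread between these samples.

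Ctss (ENSMUSG00000038642.10, chromosome 3, 95526786 to 95556403) was the gene with the unadjusted p below 0.05. It was at 15.01, 16.2 and 12.6 CPM in Arg/Arg, and at 35.7, 18.7 and 21.0 CPM in Trp/Trp kidneys. The groups did not overlap, and Trp/Trp replicate 1 was far above the other Trp/Trp libraries. The log2 fold change was 0.75 ± 0.21 (unadjusted p = 0.00603, edgeR adjusted p = 0.843), and 0.43 without Trp/Trp replicate 1. The summed level of the 13 macrophage markers was 231, 246 and 224 CPM in Arg/Arg and 339, 254 and 287 CPM in Trp/Trp kidneys, with 12 of 13 positive, 10 of them at an unadjusted p below 0.05. Of 5 markers of T and NK cells, 5 were positive, 4 of them at an unadjusted p below 0.05. So were 3 of 3 fat markers, 3 of them at that p, and 4 of 4 markers of B and plasma cells, 1 of them at that p. Positive markers were 0 of 2 for neutrophils, 5 of 9 for the proximal tubule and 2 of 8 for the distal nephron and collecting duct. The summed level of 5 fibroblast and mural markers was 546 CPM in Trp/Trp replicate 1 and 236 to 249 CPM in the other 5 kidney libraries. The part of these markers in the value of Ctss was not tested. Cd68 was at 3.51, 2.66 and 2.35 CPM in Arg/Arg, and at 4.26, 2.70 and 4.28 CPM in Trp/Trp kidneys. These groups overlapped, at 0.36 ± 0.24 (edgeR adjusted p = 0.848), and at 0.56 without Trp/Trp replicate 2.

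The lipase Lipa was at 238, 202 and 226 CPM in Arg/Arg, and at 242, 257 and 246 CPM in Trp/Trp kidneys. All Trp/Trp libraries were above all Arg/Arg libraries by a narrow margin, at 0.15 ± 0.07 (edgeR adjusted p = 0.843), and at 0.09 without Arg/Arg replicate 2. Gaa was likewise apart, at 123, 117 and 116 CPM against 125, 128 and 126.5 CPM, and Lamp2 was apart in the other direction, at 969, 961 and 958 CPM against 933, 951 and 946 CPM. Their log2 fold changes were 0.075 ± 0.05 and -0.05 ± 0.05 (edgeR adjusted p = 0.854 and 0.921), and that of Lamp2 was -0.02 without Trp/Trp replicate 1. Ctss, Lipa and Gaa were the 3 genes with all Trp/Trp kidneys above, where 6.26% of all genes did so, and Lamp2 the only one below, where 3.75% did so.

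The abundant hydrolases and membrane proteins lay close between genotypes. Psap was at 2482, 2558 and 2425 CPM in Arg/Arg, and at 2627, 2516 and 2482 CPM in Trp/Trp kidneys, with a 95% interval of the log2 fold change from -0.12 to 0.14. Lamp1 was at 1062, 1050 and 1074 CPM and at 1091, 1071 and 1081 CPM, with an interval from -0.11 to 0.13. The genotypes overlapped for both genes. Ctsd was at 335, 339 and 363 CPM and at 394, 363 and 344 CPM, with an interval from -0.06 to 0.20. Tfeb, whose protein is regulated mainly through its entry to the nucleus, was at 25.3, 23.5 and 26.1 CPM in Arg/Arg, and at 26.9, 25.4 and 27.1 CPM in Trp/Trp kidneys, with an interval from -0.09 to 0.22. Its transcript level says nothing of that entry. The log2 fold changes of Ctsd and Tfeb, both 0.07, were 0.03 without Trp/Trp replicate 1 and 0.03 without Arg/Arg replicate 2, respectively.

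**Figure D4:**
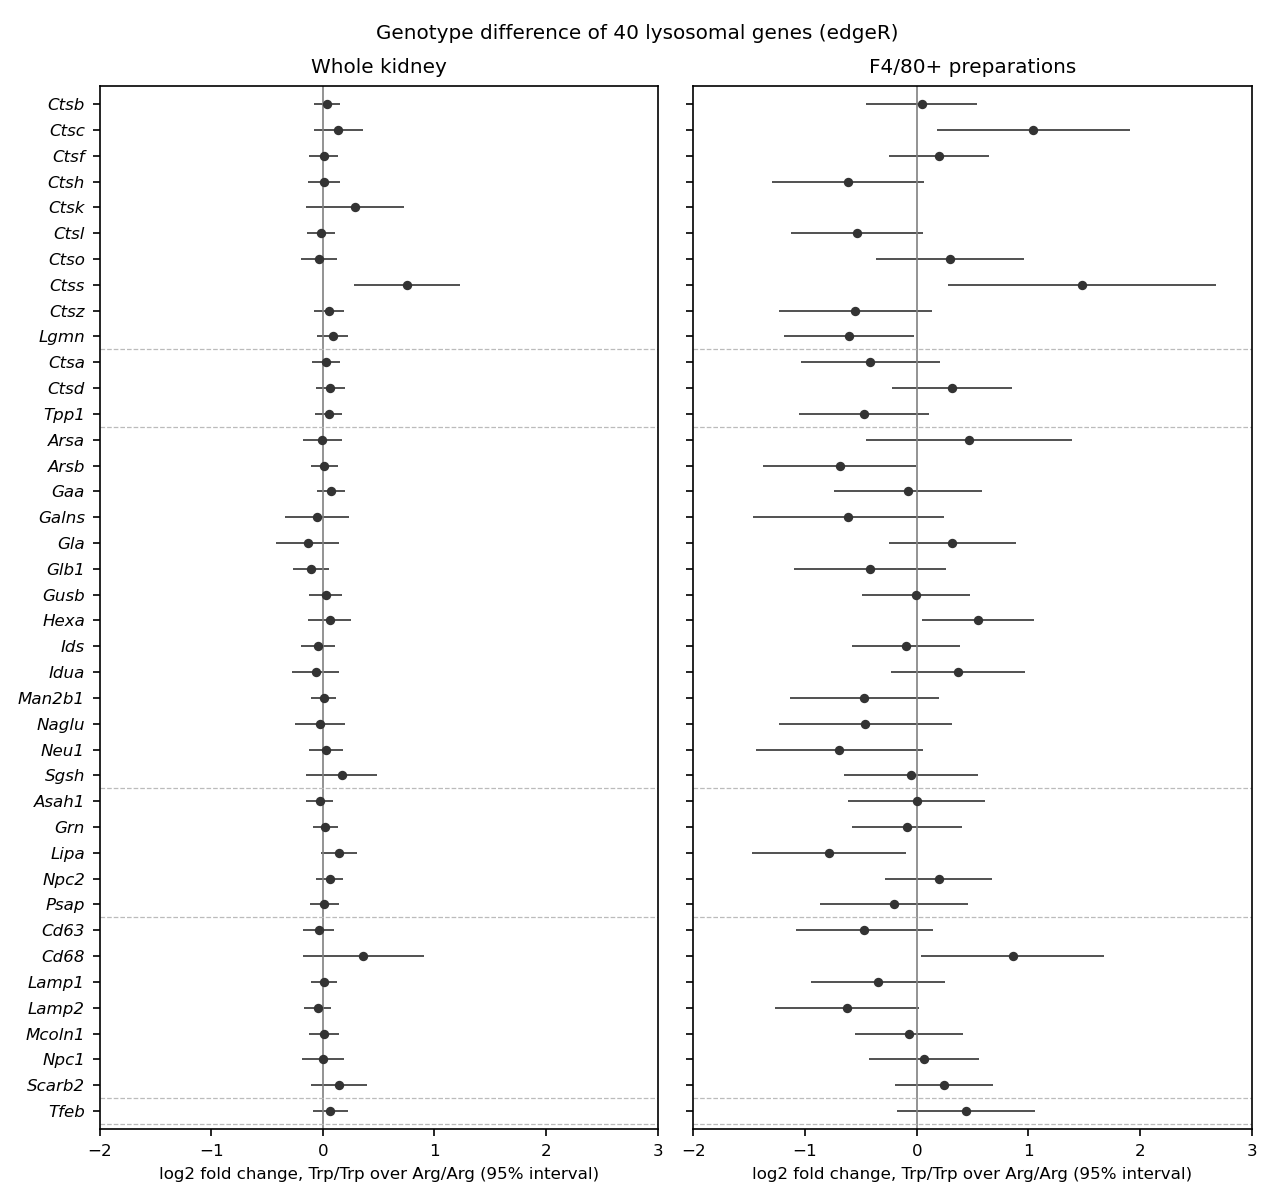
Log2 fold change of the 40 genes, Trp/Trp over Arg/Arg (x axis, edgeR, with 95% intervals), in whole kidney (left) and in F4/80+ preparations (right). Dashed lines separate the roles. Ctsk was not tested in the F4/80+ preparations. Intervals are narrow in kidney (median SE 0.064) and wide in F4/80+ preparations (median SE 0.281), and no gene passed in either.

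The third comparison asked the same of the F4/80+ preparations, where the libraries of a genotype varied far more. Here edgeR called 0 of the 39 genes tested, Ctsk having too few counts, and 0 of 15225 in all (0%). DESeq2 called 0 of the 40 and 14 genes in all. At an unadjusted p below 0.05, Ctsc, Ctss, Cd68 and Hexa were the 4 higher ones and Arsb, Lgmn and Lipa the 3 lower ones, against a background of 4.43% of all genes higher, 3.61% lower and 8.04% in either direction. The median log2 fold change was -0.08 for the 39 and 0.01 for all genes. Of the 39, 15 were positive (38.5%), and of all genes 51.1%. The 95% interval lay within 1.5-fold for 6 of 39 genes and within 2-fold for 18, so for most genes it included a difference of 2-fold or more. The share of nuclear coding counts was 0.935% ± 0.0989 for Arg/Arg and 0.816% ± 0.0508 for Trp/Trp F4/80+ (SD, n = 3).

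Of the 4 with higher values, Ctss, Cd68 and Ctsc are known from macrophages and other immune cells. Ctss was at 16.3, 2.91 and 3.72 CPM in Arg/Arg, and at 9.60, 26.6 and 29.7 CPM in Trp/Trp libraries. Arg/Arg replicate 1 lay above Trp/Trp replicate 1, so the groups overlapped, and the log2 fold change was 1.48 ± 0.55 (edgeR adjusted p = 0.605). Cd68 was at 9.45, 4.42 and 2.84 CPM in Arg/Arg, and at 10.1, 11.9 and 9.85 CPM in Trp/Trp libraries. All Trp/Trp libraries were above, though Arg/Arg replicate 1 came close, at 0.86 ± 0.37 (edgeR adjusted p = 0.609). Ctsc was at 66.6, 20.7 and 27.4 CPM in Arg/Arg, and at 48.4, 140 and 65.4 CPM in Trp/Trp libraries, with overlap, at 1.04 ± 0.40 (edgeR adjusted p = 0.605). For these 3 genes Arg/Arg replicate 1 was the highest of its group, as it was for the macrophage markers, whose summed level was 239, 130 and 126 CPM in Arg/Arg and 198, 264 and 293 CPM in Trp/Trp libraries. Of the 12 macrophage markers tested, 11 were positive, with a median log2 fold change of 1.33. The summed level of 8 distal nephron and collecting duct markers was 13860, 5736 and 5418 CPM in Arg/Arg and 12917, 20460 and 11028 CPM in Trp/Trp libraries. Of these 8, 8 were positive, 4 of them at an unadjusted p below 0.05, and their sum peaked in Trp/Trp replicate 2, as Ctsc did. The mitochondrial share of counts was 83.6, 76.6 and 79.3% in Arg/Arg and 70.1, 82.3 and 83.6% in Trp/Trp libraries, high in Arg/Arg replicate 1 and Trp/Trp replicates 2 and 3. The part of these markers and of that share in the values of Ctss, Cd68 and Ctsc was not tested. Leaving out each library in turn moved the log2 fold changes in both directions. Ctss ranged from 1.12 without Arg/Arg replicate 2 to 2.45 without Arg/Arg replicate 1. Ctsc ranged from 0.57 without Trp/Trp replicate 2 to 1.53 without Arg/Arg replicate 1, and Cd68 from 0.56 without Arg/Arg replicate 3 to 1.31 without Arg/Arg replicate 1. None of the 3 genes passed by edgeR in any of these fits.

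Hexa was at 32.9, 21.5 and 17.7 CPM in Arg/Arg, and at 37.1, 38.3 and 37.7 CPM in Trp/Trp F4/80+ libraries. The groups did not overlap, and the log2 fold change was 0.55 ± 0.23 (edgeR adjusted p = 0.608). A neighbouring gene on the opposite strand covers 12.8% of the exon bases of Hexa. Ctsd was at 495, 429 and 320 CPM against 619, 512 and 545 CPM, also apart, at 0.32 ± 0.25 (edgeR adjusted p = 0.801), and at 0.17 without Trp/Trp replicate 1. Tfeb was at 18.0, 17.8 and 9.88 CPM against 25.5, 20.9 and 20.5 CPM, apart as well, at 0.44 ± 0.28 (edgeR adjusted p = 0.718), and at 0.23 without Arg/Arg replicate 3. Together with Cd68, Ctsf and Idua these made 6 genes with all Trp/Trp libraries above, where 7.88% of all genes did so.

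Lower values in Trp/Trp were found for the lipase Lipa, legumain and the sulfatase Arsb. Lipa was at 168, 289 and 324 CPM in Arg/Arg, and at 179, 149 and 180 CPM in Trp/Trp libraries, and Arg/Arg replicate 1 lay among the Trp/Trp libraries. Its log2 fold change was -0.78 ± 0.32 (edgeR adjusted p = 0.605). Legumain was at 189, 268 and 267 CPM in Arg/Arg, and at 187, 167 and 174 CPM in Trp/Trp libraries, just apart, at -0.61 ± 0.27 (edgeR adjusted p = 0.613). Arsb was at 199.5, 321 and 371 CPM against 221, 176 and 220 CPM, with overlap, at -0.69 ± 0.31 (edgeR adjusted p = 0.618), and other transcripts on the opposite strand cover 39.9% of its exon bases. In all 3 genes Arg/Arg replicates 2 and 3 were the highest of the 6 libraries. The same held for the summed level of 9 proximal tubule markers, at 9321, 17637 and 17778 CPM in Arg/Arg and 12453, 6013 and 8530 CPM in Trp/Trp libraries, and 0 of these 9 markers had a positive value. The part of these markers in the lysosomal values was not tested. Besides legumain, Ctsl was the only other gene with all Trp/Trp libraries below, at 792, 928 and 1054 CPM against 707, 627 and 783 CPM, where 3.06% of all genes were so.

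**Figure D5:**
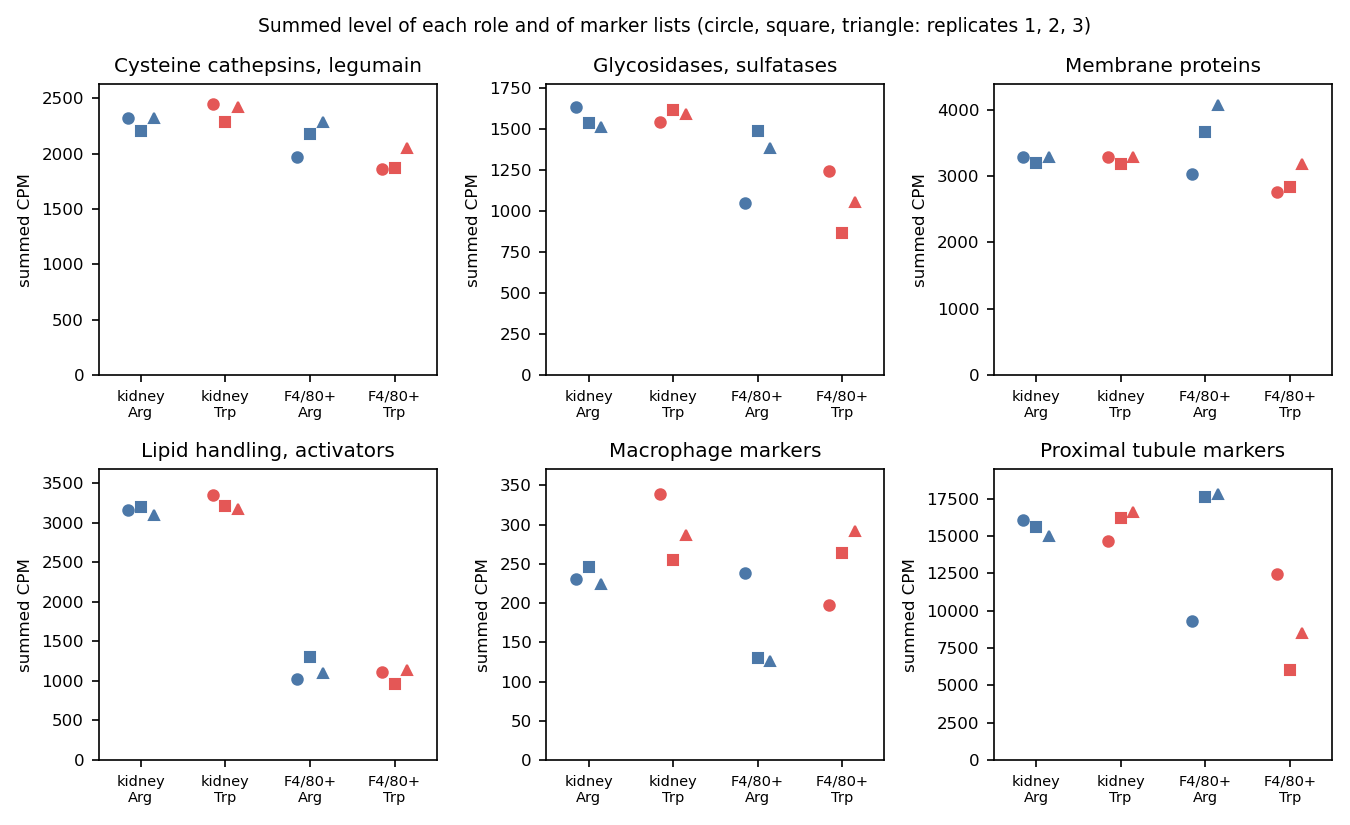
Summed level in every library (CPM, y axis from 0) of 4 roles of the lysosomal genes and of the macrophage and proximal tubule marker lists. Blue is Arg/Arg, red is Trp/Trp, and symbols are replicates 1 to 3. In the F4/80+ preparations the proximal tubule sum runs from 6013 to 17778 CPM and the macrophage sum from 126 to 293 CPM.

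By role, the summed level of the cysteine cathepsins and legumain was 1970, 2178 and 2289 CPM in Arg/Arg and 1858, 1866 and 2048 CPM in Trp/Trp F4/80+ libraries. That of the glycosidases and sulfatases was 1048, 1489 and 1381 CPM against 1243, 868 and 1053 CPM. That of the membrane proteins was 3033, 3657 and 4065 CPM against 2755, 2841 and 3183 CPM. All of these sums overlapped between genotypes. In kidney the same 3 sums lay between 2208 and 2445 CPM, between 1510 and 1631 CPM and between 3187 and 3285 CPM over all 6 libraries.

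In the authors' deposited table for the F4/80+ preparations, 0 of the 30 genes with an adjusted p passed, the smallest being 0.23, and 9 of the 39 with a p had an unadjusted p below 0.05. Those 9 in the authors' deposited table were Ctsc and Cd68 with higher values in Trp/Trp, and Ctsh, Ctsl, Lamp2, Lipa, Arsb, Neu1 and Lgmn with lower values. In the authors' deposited table for kidney, 0 of the 39 genes with an adjusted p passed and 0 had an unadjusted p below 0.05. The share of all genes below that p in the authors' deposited tables was not computed. The counts therefore have no background and do not show whether these genes stand out. Ctss is the gene without a p in both of the authors' deposited tables, so these counts say nothing of it. Its log2 fold change in the authors' deposited tables was 0.75 in kidney and 1.46 in the F4/80+ preparations.

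Whether the genotype difference itself differed between the sample types was tested as an interaction over all 12 libraries. edgeR called 0 of the 40 and 0 of 13578 genes (0%), and DESeq2 called 0 of the 40 and 10 in all. At an unadjusted p below 0.05, 0 of the 40 were higher and 2 were lower, against 4.04% of all genes higher, 2.28% lower and 6.33% in either direction. The 2 were Lipa at -0.79 ± 0.28 (unadjusted p = 0.0143, edgeR adjusted p = 0.771) and legumain at -0.56 ± 0.21 (unadjusted p = 0.0188, edgeR adjusted p = 0.771). The count of calls depended on 1 library. Without Arg/Arg F4/80+ replicate 1, edgeR called 844 of the 13701 genes tested. Among them were 4 of the 40, namely Lipa at -1.02, Arsb at -0.78, legumain at -0.71 and Hexa at 0.87 (edgeR adjusted p = 0.0128, 0.0283, 0.0274 and 0.0274). Without that library and Trp/Trp kidney replicate 1 together, a choice made after seeing the data, edgeR called 703 of the 13627 genes tested. Among these were 3 of the 40, namely Ctss at 2.27, Lipa at -1.04 and Hexa at 0.96 (edgeR adjusted p = 0.0447, 0.026 and 0.0318).

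A wider list of lysosomal genes was counted beside the 40. It held the subunits of the proton pump, other hydrolases, other membrane proteins and transporters, sorting factors, regulators and cathepsin inhibitors. By genotype, edgeR called 0 of 96 in kidney and 0 of 94 in the F4/80+ preparations. At an unadjusted p below 0.05, where 5.71% and 8.04% of all genes were, there were 2 and 11. Laptm5, a lysosomal membrane protein of blood cells, was among both. It was at 14.6, 13.7 and 11.4 CPM in Arg/Arg and 28.2, 14.6 and 16.6 CPM in Trp/Trp kidneys, and at 3.05, 1.64 and 0.0980 CPM in Arg/Arg and 3.77, 8.93 and 10.9 CPM in Trp/Trp F4/80+ libraries. Neither value passed, at 0.56 ± 0.21 and 2.25 ± 0.70 (edgeR adjusted p = 0.843 and 0.605).

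Between sample types 20 of 95 of the wider list were higher and 36 lower in the F4/80+ libraries (edgeR), where 26.4% and 37.4% of all genes were. Of 21 proton pump genes, 6 were higher and 6 lower. The 2 with the smallest p encode subunits found in acid-secreting cells of the collecting duct, which need not be their only site. Atp6v1g3 was at 65.4 to 87.1 CPM in kidney and at 450, 291 and 186 CPM in Arg/Arg and 387, 335 and 661 CPM in Trp/Trp F4/80+ libraries. Atp6v0d2 was at 52.6 to 57.0 CPM in kidney and at 356, 147 and 206 CPM in Arg/Arg and 173, 325 and 501 CPM in Trp/Trp F4/80+ libraries. All F4/80+ libraries were above all kidney libraries for both, at 2.30 ± 0.21 and 2.35 ± 0.25 (edgeR adjusted p = 9.11e-07 and 2.74e-06). Other pump subunits were mixed. Atp6v1c2 had a mean of 38.8 CPM in kidney and 115 CPM in the F4/80+ libraries, all of which lay above kidney. Atp6v1b1 had a mean of 149 CPM in kidney and 67.0 CPM in the F4/80+ libraries, all of which lay below kidney. Atp6v0a4 had means of 407 and 448 CPM, with overlap. The summed level of 8 distal nephron and collecting duct markers was 5418 to 20460 CPM in the F4/80+ libraries and 7301 to 7984 CPM in kidney, and its part in these values was not tested. Of 25 other hydrolases and activators, 2 were higher and 13 lower, with the thioesterase Ppt2 at -1.61 ± 0.16 and the hyaluronidase Hyal1 at -1.20 ± 0.14 (edgeR adjusted p = 1.36e-06 and 7.95e-06).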

How the data were processed

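The members and all gene lists were chosen with earlier results of these data known. RNA sequencing counts were taken from a table per sample type. Per the submitters' processing notes, STAR, DRAGEN, DESeq2 and the build mm10 were used, with no versions; of the counter, strand setting and annotation nothing is stated in the labels. The authors deposited raw counts per gene and library. Their tables also held the signal column (mean normalized count), the log2 fold change, the ratio made from it, score columns (SE and Wald statistic) and the p-value and adjusted p-value, as deposited by the authors. The deposited kidney fold change was reversed in sign, so that positive means higher in Trp/Trp, as the counts show.

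Total counts were 19.6 to 54.7 M per kidney and 35.9 to 51.6 M per F4/80+ library. All replicate pairs differed by more than sampling noise (chi-square per degree of freedom 7.63 to 74.5). Genotypes were compared per table, and sample type and interaction over 12 libraries and 13733 shared nuclear protein-coding genes. The test was edgeR 4.0.16 quasi-likelihood in R 4.3.3, with filterByExpr (minimum count 10, minimum total 15), TMM for genotype and library totals for the rest, and Benjamini-Hochberg adjustment over all genes tested at 0.05. Alternatives were DESeq2 1.42.0, limma 3.58.1 voom, other scalings, no filter, nuclear coding genes only, a replicate block and leaving out libraries. Intervals are 95%. The procedure was tested on simulated data. Python 3.11.15 with matplotlib 3.10.9 made the figures. Genes named with full values were Ctsd, Lamp1, Cd68 and Tfeb, up to 2 of smallest p per role and comparison, and the largest sample type differences. Exon lengths and overlaps came from GENCODE vM21, whose build matches the deposited coordinates. Other named members, such as Ctsf, Ctsz, Naglu, Neu1, Galns, Gla and Idua, were chosen after their values were seen.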

Additional observations from a re-analysis of the deposited data

How the results depend on the processing

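With library totals in place of TMM, the median log2 fold change of the genes in the F4/80+ genotype comparison was 0.135 (all genes 0.227) in place of -0.075. The sample type count of genes higher by a log2 difference of at least 1 was 2 with TMM and 2 with RLE in place of 1, and 0 without both Trp/Trp kidney replicate 1 and Arg/Arg F4/80+ replicate 1. The sample type median was -0.031 with RLE. Without that pair the interaction called 3 genes, 2 higher and 1 lower. Over all counts, mitochondrial ones included, the genes took 1.011% and 1.038% in Arg/Arg and Trp/Trp kidneys and 0.1807% and 0.1656% in the F4/80+ groups, since that total holds the mitochondrial reads. Leaving out each library in turn gave 0 calls by genotype in both sample types, medians of 0.014 to 0.039 in kidney and -0.170 to -0.011 in F4/80+ preparations, and shares of 1.103 to 1.117%, 1.127 to 1.144%, 0.9064 to 0.9924% and 0.7945 to 0.8439% in the 4 groups. For sample type it gave 22 to 27 calls, 6 to 9 higher and 16 to 19 lower, with 0 to 1 higher and 6 to 10 lower by at least 1, and a median of -0.243 to -0.165. For the interaction it gave 0 to 4 calls, 0 to 1 higher and 0 to 3 lower, and a median of -0.083 to 0.063. Samples of the same replicate number showed no clear pairing (correlations of deviations -0.077, -0.016 and -0.011 in kidney, -0.317, -0.491 and 0.178 in F4/80+ preparations). Those of unlike numbers ran from -0.125 to 0.115 and from -0.141 to 0.489. With 3 replicates per group, such values cannot exclude a pairing. With a replicate block edgeR called 0 of the genes by genotype in kidney, 0 in F4/80+ preparations, 23 by sample type and 0 for the interaction. Over 1476 alternative values of named genes, 18 lost and 15 gained a call, and 46 that were never called changed sign. Other causes were not tested. The F4/80+ replicates had a chi-square per degree of freedom of 23.0 to 74.5 between them and kidney replicates 7.63 to 21.5, so spread between libraries was larger than counting error in both. Whether depth limits the genotype comparison was not tested.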

Other observations

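Some lysosomal genes outside the 40 were called between sample types, as 63.7% of all genes were, so the counts here are not particular to these genes. Both cathepsin inhibitors tested were higher in the F4/80+ libraries, Cstb, or cystatin B, by 1.10 ± 0.10 and Cst3, or cystatin C, by 0.67 ± 0.15 on the log2 scale (edgeR adjusted p = 1.04e-06 and 0.00148). For Cst3 the sample types overlapped, as Arg/Arg F4/80+ replicate 3 at 190 CPM lay below all kidney libraries (209 to 262 CPM). Of 6 genes that sort enzymes to the lysosome, 3 were higher and 0 lower, with Gnptab, a subunit of the enzyme that makes the mannose 6-phosphate tag, at 1.02 ± 0.14 and the receptor M6pr at 0.33 ± 0.10 (edgeR adjusted p = 2.6e-05 and 0.00998). Of 19 regulators, 3 were higher and 9 lower. Bhlhe40, a transcriptional repressor, was at 72.9 to 141.5 CPM in kidney and 530 to 775 CPM in the F4/80+ libraries, and Rraga, a GTPase that recruits mTORC1 to lysosomes, was lower by -1.07 ± 0.09 (edgeR adjusted p = 3.17e-07).

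The lowest and highest levels of the 40 genes fell unevenly over the libraries of a sample type. The libraries named here were chosen after the values were seen, and genes that vary together do not count as independent. In Trp/Trp F4/80+ replicate 2, 16 of the 40 (40%) had their lowest level of the 6 F4/80+ libraries, where 14.1% of all genes did, and 11 others (27.5%) had their highest level there, where 30.7% of all genes did. In Arg/Arg F4/80+ replicate 2, 13 of the 40 (32.5%) had their highest level, where 9.77% of all genes did. In kidney, 15 of the 40 (37.5%) had their lowest level in Arg/Arg replicate 2, where 16.2% of all genes did. Other shares lay near those of all genes, such as 37.5% with their highest kidney level in Trp/Trp replicate 1, against 34.3%.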
